A study of Mus musculus with 7 samples.

Results

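The genes of the C/EBP family and Irf8, transcription factors that direct progenitors towards granulocytes and monocytes, were examined across the 7 RNA-seq libraries of sorted EML cells. Members were chosen by symbol as Cebpa, Cebpb, Cebpd, Cebpe, Cebpg and Irf8, 6 of the 20464 rows of the deposited expression table. EML cells are a mouse haematopoietic line that can give erythroid, myeloid and lymphoid cells. The line was made by putting a dominant-negative retinoic acid receptor into bone marrow cells and grows in stem cell factor, so both groups carry that receptor and stand for 1 cell line. Annexin V-negative, live cells were compared as CD34-positive (3 libraries) against CD34-negative (4 libraries), CD34 being a surface sialomucin of early progenitors. All libraries carry the strain label C57BL/6, no treatment or time is labelled, and the genotype label of the CD34-negative libraries reads CD43 while their titles read CD34. Labels naming bone marrow and a postnatal age were not used, since the source label names the line.

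C/EBP proteins bind DNA as dimers through a basic region and a leucine zipper, and the family members can pair with one another. In blood formation C/EBP alpha is needed for progenitors to become granulocyte and monocyte precursors, and C/EBP epsilon acts later, when secondary granules form. C/EBP beta takes over in emergency granulopoiesis, C/EBP delta responds to inflammatory signals, and C/EBP gamma, which lacks a strong activation domain, pairs with other leucine zipper factors such as ATF4. Irf8 is an interferon regulatory factor that steers precursors towards monocytes and dendritic cells and away from neutrophils.

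The stretches before the start sites are shown for the 4 of the 6 members that have an entry among the promoter sequences used here. They are the 250 bases upstream of the first listed start site, from RefSeq (GRCm38.p6), read 5′ to 3′ on the gene's strand. Capitals mark matches to the motifs named after the sequences.
Cebpa: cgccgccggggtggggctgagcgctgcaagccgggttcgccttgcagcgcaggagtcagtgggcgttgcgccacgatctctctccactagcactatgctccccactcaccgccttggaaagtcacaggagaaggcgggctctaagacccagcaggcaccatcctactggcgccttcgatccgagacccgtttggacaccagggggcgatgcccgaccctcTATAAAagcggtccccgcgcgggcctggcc
Cebpg: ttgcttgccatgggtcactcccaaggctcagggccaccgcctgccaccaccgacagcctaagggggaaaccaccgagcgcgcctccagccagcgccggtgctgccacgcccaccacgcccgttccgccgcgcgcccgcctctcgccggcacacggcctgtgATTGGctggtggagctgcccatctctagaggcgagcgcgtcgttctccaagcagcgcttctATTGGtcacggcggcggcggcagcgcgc
Cebpb: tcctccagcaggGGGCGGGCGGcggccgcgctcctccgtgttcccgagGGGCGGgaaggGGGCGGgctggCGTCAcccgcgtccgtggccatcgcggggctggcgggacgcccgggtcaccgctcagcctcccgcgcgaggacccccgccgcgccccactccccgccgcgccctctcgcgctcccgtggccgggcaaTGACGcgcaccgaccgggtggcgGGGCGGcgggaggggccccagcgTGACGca
Irf8: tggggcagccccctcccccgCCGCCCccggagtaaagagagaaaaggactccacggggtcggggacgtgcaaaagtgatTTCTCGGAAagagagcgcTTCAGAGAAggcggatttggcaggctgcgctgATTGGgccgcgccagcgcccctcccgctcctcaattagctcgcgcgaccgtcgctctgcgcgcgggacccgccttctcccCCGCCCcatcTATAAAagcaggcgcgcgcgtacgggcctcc
The Cebpa stretch is chr7:35119043-35119292 on the plus strand, the Cebpg stretch chr7:35056567-35056816 on the minus strand, the Cebpb stretch chr2:167688665-167688914 on the plus strand and the Irf8 stretch chr8:120736108-120736357 on the plus strand. The promoter sequences used here hold no entry for Cebpd and Cebpe.

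Both strands were searched for 8 motifs in these windows and in the same 250-base windows of 32851 listed start sites. A TATA box (TATAAA) lay at -30 to -25 in Cebpa and at -31 to -26 in Irf8, and 12.4% of all windows held one. Cebpg held a pair of CCAAT boxes (CCAAT, seen here as ATTGG), at -89 to -85 and -28 to -24, and Irf8 held 1 at -121 to -117, against 33.8% of all windows with any. Cebpb held 3 cAMP response motifs (TGACG, 17.8% of windows) and 5 GC boxes (GGGCGG, 32.7%), of which the pair at -238 to -233 and -234 to -229 overlap. Irf8 also held 2 GC boxes and 2 STAT sites (TTCNNNGAA, 7.02%), TTCTCGGAA at -171 to -163 and TTCAGAGAA at -153 to -145. None of these 4 windows held the C/EBP site as searched (TTNNGNAA, 36.8%), the IRF element (GAAANNGAA, 7.13%) or the PU.1 site (GAGGAAG, 10.6%).

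In the GENCODE M21 annotation (GRCm38), Cebpa and Cebpg are neighbouring genes on chromosome 7 that point away from each other, with 62719 bases between them. Cebpb is a gene of 1 exon on chromosome 2, and 312 of its 1504 exonic bases (20.7%) also lie in exons of Tmem189 on the other strand. Cebpd, on chromosome 16, shares 562 of 3746 exonic bases (15.0%) with Spidr on the other strand. Cebpe (chromosome 14) and Irf8 (chromosome 8) shared no exonic base with another gene. The sources used here do not state whether strand was used in counting, and the values of Cebpb and Cebpd may hold reads of these partners.

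The libraries differed in ways that cross the groups. Values are FPKM, fragment counts divided by transcript length and by the mapped fragments of the library. Titles number the replicates, and descriptions carry the numbers 3 (replicate 1 of both groups), 2 (replicate 2 of both groups) and 4 (CD34-positive replicate 3, CD34-negative replicates 3 and 4, the last written 4a). The share of all FPKM in ribosomal protein genes was 2.24% to 4.09% for the 3 libraries numbered 4 and 27.7% to 37.1% for the other 4. Cd34 itself stood at 147, 256 and 153 FPKM in CD34-positive replicates 1 to 3, against 91.8, 19.3, 2.67 and 6.02 FPKM in CD34-negative replicates 1 to 4, so CD34-negative replicate 1 held the most Cd34 of its group. Of the marker genes of other cell types, 5 of 5 tested erythroid genes had lower values in every CD34-positive than in every CD34-negative library, as did 3.01% of all tested genes (the list summed to 7.92 to 55.8 against 107 to 656 FPKM). So did 4 of 5 tested mast cell genes (the list summed to 2120 to 3200 against 1650 to 10400 FPKM, Cpa3 included). Cpa3, the other tested mast cell gene, had a log2 difference of 1.10 (SE 1.08), with overlap between the groups. It made up most of the sum in the CD34-positive libraries. B and T lymphoid markers summed to 1.1 to 2.39 against 0.786 to 2.13 FPKM, with Pax5, Ebf1 and Cd3e at 0 in all 7 libraries. The other marker lists had median differences above 0, the direction of the 4 tested C/EBP genes. All 5 multipotent progenitor markers were tested and summed to 620 to 680 against 81.0 to 535 FPKM, and 3 of them, Cd34 itself included, were higher without overlap (2.67% of all tested genes). The neutrophil and monocyte markers, which the early myeloid list also holds, summed to 898 to 1710 against 38.8 to 1160 FPKM. Nearly all of that sum was Mpo, and Elane, Csf3r and Csf1r lay under 1 FPKM in every library. The stromal and endothelial markers summed to 97.2 to 160 against 53.0 to 134 FPKM, nearly all of it Pdgfrb and Pecam1, with Col1a2 at 0 throughout. Pdgfrb and Pecam1 were higher in all 4 comparisons of libraries of equal number, as were 21.4% of all tested genes. The hepatocyte markers summed to 149 to 197 against 35.1 to 164 FPKM, nearly all of it Trf, which encodes transferrin, with Alb and Ttr at 0 throughout. The part of other cell types in the results below was not tested, and in bulk RNA fewer cells of a type cannot be told apart from less RNA per cell.

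All 5 C/EBP genes had a nonzero value in every library. The levels ran from near the floor (Cebpb at 0.0397 FPKM in CD34-positive replicate 3) to moderate. In each of the 7 libraries Cebpg had the highest FPKM of the 6 genes and Cebpd the next, and Irf8 was the lowest in 6 of 7. The 5 C/EBP genes together summed to 36.7, 28.2 and 30.7 FPKM in CD34-positive replicates 1 to 3, against 29.5, 12.8, 15.9 and 16.8 FPKM in CD34-negative replicates 1 to 4. The sums overlapped, since CD34-negative replicate 1 lay above CD34-positive replicate 2. Cebpg made up 39.4% to 63.1% of that sum in CD34-positive and 34.7% to 80.0% in CD34-negative libraries. Cebpe made up 6.68% to 12.0% in CD34-positive libraries, against 8.81% in CD34-negative replicate 1 and 0.78% to 1.24% in the other 3. Below the leading pair the order was not fixed. Cebpe lay above Cebpa in 5 of 7 libraries, and in CD34-positive cells their means of 3.15 ± 1.19 and 2.47 ± 2.15 FPKM (SD, n = 3) differed by less than the spread.

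**Figure D1:**
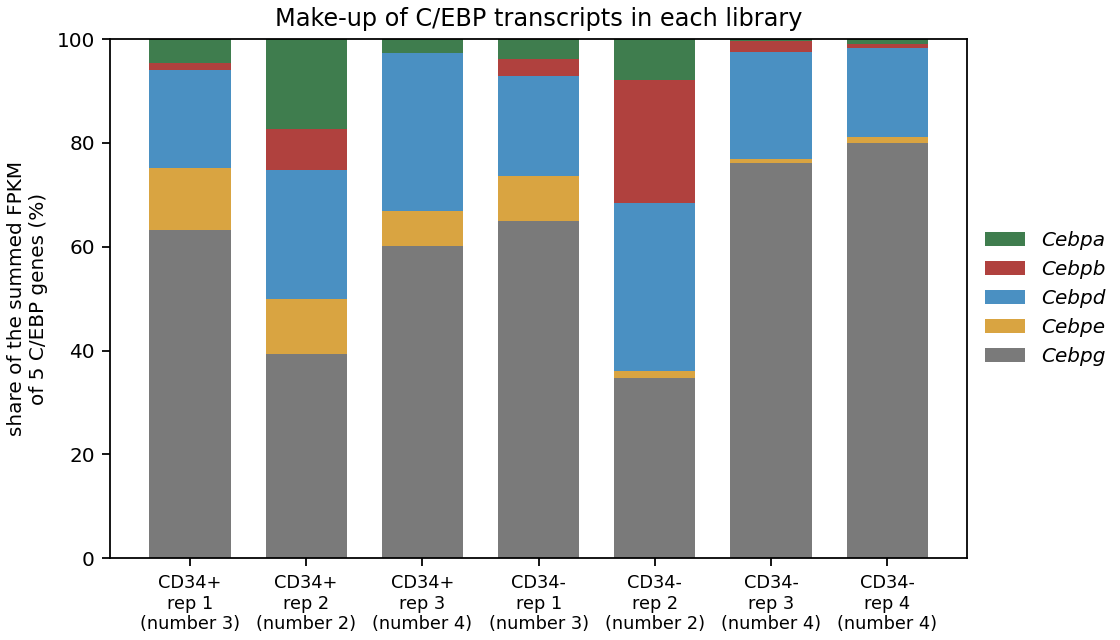
Share of the summed FPKM of 5 C/EBP genes (vertical axis, percent) taken by each gene in the 3 CD34-positive and 4 CD34-negative libraries. Cebpg is the largest part in every library but varies from 34.7% to 80.0%, and the Cebpe part is under 2% in 3 of 4 CD34-negative libraries.

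Group differences were tested with limma on log2(FPKM + 1) over 9259 genes that reached 1 FPKM in 3 or more libraries. On this scale the differences of low genes come out smaller than their FPKM ratios. Of the 6 members 4 passed this minimum (Cebpa, Cebpd, Cebpe and Cebpg), and Cebpb and Irf8 did not. Cebpe passed it largely through the CD34-positive libraries, and Cebpa through replicates 1 and 2 of both groups, so the counts over these 4 are not support for a difference. None of the 4 passed an adjusted p of 0.05 in limma with Benjamini-Hochberg adjustment, either without a block or with the description number as a block, and 0.0% of all tested genes did in each direction. At an unadjusted p under 0.05, 2 of the 4 were higher in CD34-positive cells without the block (3.38% of all tested genes, with 2.27% lower) and 4 of the 4 with it (12.8%, with 9.14% lower). The numbers pair the libraries by the check described with the processing, so the blocked values are given beside those without a block. No label says whether replicates are separate cultures, so the spread behind the p-values may be technical.

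**Figure D2:**
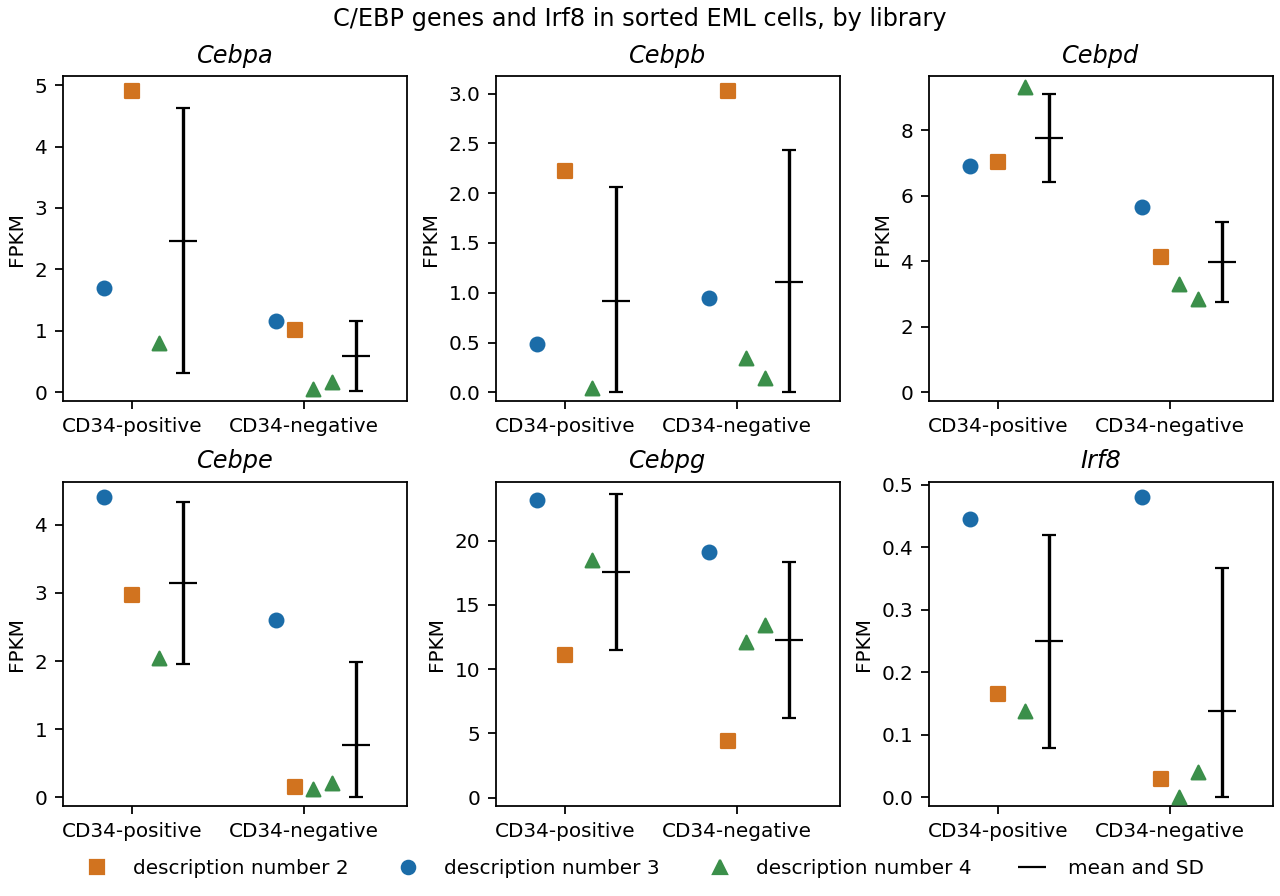
FPKM (vertical axis, from 0, with its own scale for each gene) of the 6 genes in the 3 CD34-positive and 4 CD34-negative libraries, with symbols for the description number. Bars are the mean and SD, drawn no lower than 0. For Cebpd the groups do not overlap, and for Cebpe CD34-negative replicate 1 (number 3) stands at 2.60 FPKM, above the other 3 libraries of its group.

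Cebpa, the factor that opens the granulocyte and monocyte path, had 1.71, 4.90 and 0.806 FPKM in CD34-positive replicates 1 to 3, against 1.16, 1.01, 0.0522 and 0.162 FPKM in CD34-negative replicates 1 to 4. CD34-positive replicate 2 was the highest library and the 2 CD34-negative libraries numbered 4 were the lowest. The groups overlapped, because CD34-positive replicate 3 lay below CD34-negative replicates 1 and 2, yet within every number the CD34-positive library was higher. The log2 difference was 1.01 (SE 0.46; 95% interval -0.02 to 2.05; limma adjusted p = 0.901), and with the block 0.85 (SE 0.23; limma adjusted p = 0.114). Without CD34-positive replicate 2 the difference was 0.54 without a block (limma adjusted p = 0.999) and also 0.54 with it (limma adjusted p = 0.511). With the block, leaving out CD34-negative replicate 2 gave 0.54 as well (limma adjusted p = 0.51). This match is fixed by the design, since a library left alone in its block adds nothing to the difference. With the pseudocount 0.1 the difference without a block was 2.05.

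Cebpe, the regulator of late granulocyte maturation, had 4.41, 2.97 and 2.05 FPKM in CD34-positive replicates 1 to 3, against 2.60, 0.158, 0.124 and 0.208 FPKM in CD34-negative replicates 1 to 4. In CD34-negative replicates 2 to 4 the gene was near 0 and clear of every CD34-positive library. CD34-negative replicate 1 was the exception and lay above CD34-positive replicate 3, and the groups therefore overlapped. The log2 difference was 1.39 (SE 0.45; 95% interval 0.35 to 2.42; limma adjusted p = 0.686), the largest of the 4 tested members, and with the block 1.27 (SE 0.23; limma adjusted p = 0.0931). Without CD34-negative replicate 1 the difference was 1.79 without a block (limma adjusted p = 0.0554) and 1.555 with it (SE 0.19; limma adjusted p = 0.0188), and without CD34-positive replicate 1 it was 1.555 with the block (limma adjusted p = 0.0179). These blocked values come from what is in effect the same fit, as each leaves the other replicate 1 library alone in its block. With the pseudocount 0.1 the difference without a block was 2.73.

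Cebpd, an early responder to inflammatory cytokines, had 6.92, 7.04 and 9.32 FPKM in CD34-positive replicates 1 to 3, against 5.64, 4.13, 3.30 and 2.86 FPKM in CD34-negative replicates 1 to 4. Every CD34-positive library lay above every CD34-negative one, as was the case for 2.67% of all tested genes. CD34-positive libraries averaged 7.76 ± 1.35 FPKM (SD, n = 3) and CD34-negative libraries 3.98 ± 1.23 FPKM (SD, n = 4). The log2 difference was 0.83 (SE 0.29; 95% interval 0.18 to 1.49; limma adjusted p = 0.691), and with the block 0.81 (SE 0.22; limma adjusted p = 0.116). Without CD34-positive replicate 3 the blocked difference was 0.45 (95% interval -0.09 to 0.99; limma adjusted p = 0.531). Its antisense neighbour Spidr is not used here, and its part in these values was not tested.

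Cebpg, the widely expressed partner of other leucine zipper proteins, had 23.2, 11.1 and 18.5 FPKM in CD34-positive replicates 1 to 3, against 19.1, 4.43, 12.1 and 13.4 FPKM in CD34-negative replicates 1 to 4. The ranges overlapped broadly, and the replicate 2 libraries were the lowest of each group. The log2 difference was 0.57 (SE 0.48; 95% interval -0.51 to 1.66; limma adjusted p = 1.0), and with the block 0.63 (SE 0.19; limma adjusted p = 0.134). Without a block the difference was 0.19 without CD34-negative replicate 2, 0.36 without CD34-positive replicate 1, and 0.51 to 0.86 over the other single libraries left out. With the block it was 0.40 without either replicate 2 library (limma adjusted p 0.528 and 0.529). Leaving out either is in effect the same fit, since the other is then alone in its block.

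Cebpb, the factor of stress granulopoiesis, had 0.486, 2.22 and 0.0397 FPKM in CD34-positive replicates 1 to 3, against 0.946, 3.02, 0.344 and 0.138 FPKM in CD34-negative replicates 1 to 4. It followed the number more than the group, being highest in both libraries numbered 2 and lowest in the libraries numbered 4. Within each number the CD34-positive library was the lower one, the opposite of Cebpa, Cebpd, Cebpe and Cebpg, and 18.9% of all tested genes were lower in all 4 such comparisons. Cebpb was below the minimum, and without any filter its log2 difference was -0.12 (SE 0.58; limma adjusted p = 1.0), or -0.31 (SE 0.08; limma adjusted p = 0.39) with the block, a setting added after the values were seen. Tmem189, whose exons share bases with Cebpb on the other strand, had 21.4, 25.2 and 10.4 FPKM in CD34-positive replicates 1 to 3, against 24.9, 40.9, 19.0 and 11.8 FPKM in CD34-negative replicates 1 to 4. It too was lower in the CD34-positive library of each of the 4 comparisons and highest in the CD34-negative library numbered 2, and its part in the Cebpb values was not tested.

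Set against each other within a library, where scaling cancels, the FPKM ratio of Cebpa to Cebpb was 3.51, 2.21 and 20.3 in CD34-positive replicates 1 to 3, against 1.22, 0.334, 0.152 and 1.18 in CD34-negative replicates 1 to 4. The ratios did not overlap between the groups, and the share of gene pairs that separate in this way was not computed. CD34-positive replicate 3 divides by Cebpb at 0.0397 FPKM, and CD34-negative replicate 3 has Cebpa at 0.0522 FPKM, both near 0. The Cebpa to Cebpb ratio was chosen after its values were seen, so it has no test. The part of Tmem189 reads in it was not tested either.

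Irf8 was barely detected in EML cells. It had 0.445, 0.165 and 0.138 FPKM in CD34-positive replicates 1 to 3, against 0.481 and 0.029 FPKM in CD34-negative replicates 1 and 2, 0 in replicate 3 and 0.0411 FPKM in replicate 4. Both replicate 1 libraries stood above all others, and the groups overlapped. Without any filter the log2 difference was 0.15 (SE 0.17; limma adjusted p = 1.0), or 0.11 (SE 0.05; limma adjusted p = 0.577) with the block, again a setting added after the values were seen.

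The lowest values may rest on few fragments. Low values of the libraries numbered 4 stood in preferred ratios, 0.812 for CD34-positive replicate 3 to CD34-negative replicate 3 (186 of 1296 low genes) and 1.43 for CD34-positive replicate 3 to CD34-negative replicate 4 (205 of 1543 low genes), which would be the ratios of what 1 fragment is worth. Scaled by these ratios and taken as the smallest whole numbers that fit within 0.05, Cebpb stood at 1 in CD34-positive replicate 3, against 7 and 5 in CD34-negative replicates 3 and 4. Irf8 stood at 7 against 0 and 3, and Cebpa at 38 against 2 and 11. The smallest value and a 0 fit by construction, so for Irf8 only the 7 was checked. For the other 3 members no such numbers were found with a smallest of up to 3. The ratios are themselves rounded, so a large number such as 38 is less certain than the tolerance of 0.05. The true fragments may be multiples of these numbers, so no interval is given.

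The differences between libraries of equal number describe each pair. Cebpa differed by 0.33 in number 3, 1.55 in number 2, and 0.78 and 0.64 in number 4 against CD34-negative replicates 3 and 4, on the log2(FPKM + 1) scale. Cebpe differed by 0.59, 1.78, 1.44 and 1.34 in the same order, Cebpd by 0.25, 0.65, 1.26 and 1.42, and Cebpg by 0.26, 1.16, 0.57 and 0.43. In these 4 genes number 3 gave the smallest difference, and it also had the smallest difference of Cd34 (0.68, against 3.66, 5.40 and 4.46). The 4 genes were higher in CD34-positive cells in all 4 comparisons, as were 21.4% of all tested genes. Cebpb differed by -0.39, -0.32, -0.37 and -0.13, and Irf8 by -0.04, 0.18, 0.19 and 0.13. The number 4 comparisons share the CD34-positive library.

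**Figure D3:**
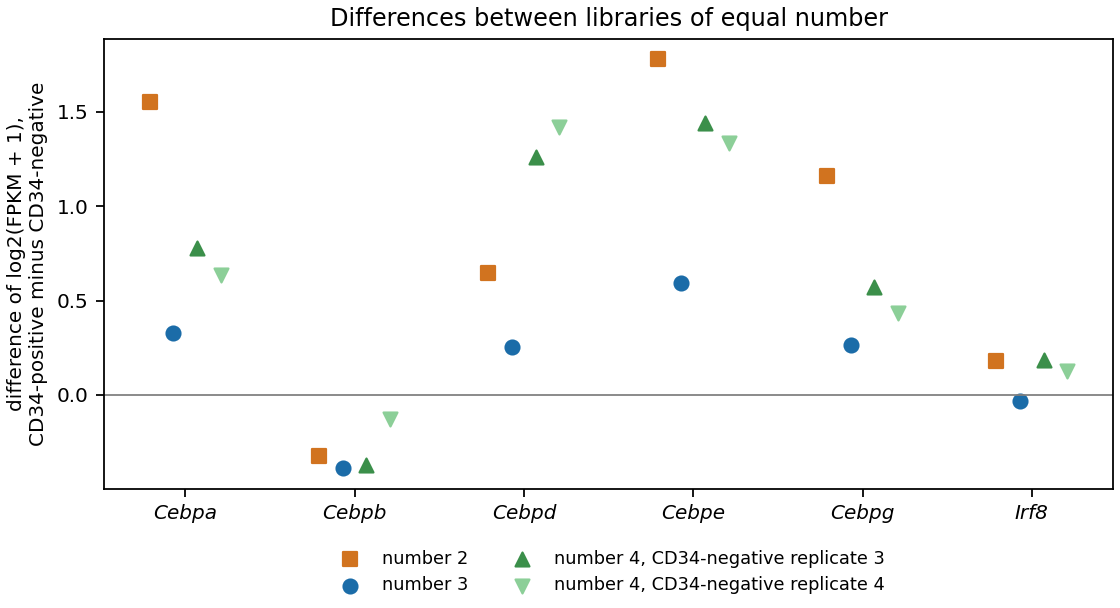
Difference of log2(FPKM + 1), CD34-positive minus CD34-negative (vertical axis), between libraries of equal description number for each of the 6 genes. Cebpa, Cebpd, Cebpe and Cebpg lie above 0 in all 4 comparisons with number 3 the lowest, and Cebpb lies below 0 in all 4.

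Early myeloid genes that C/EBP alpha is known to regulate had mostly higher values in CD34-positive cells. Of 8 tested of 12, 7 had a difference above 0 and none passed over all genes with or without the block. Over all tested genes 62.1% had a difference above 0, which bears on this count and on those of the lists that follow. The median log2 difference of the list was 1.29, against 0.09 over all tested genes. At an unadjusted p under 0.05 in limma, 4 were higher and 0 lower without the block, and 5 and 0 with it. Over all tested genes the shares were 3.38% higher and 2.27% lower without the block, and 12.8% and 9.14% with it. They bear on such counts in the lists that follow too. Mpo, the granule enzyme myeloperoxidase, had 1488, 1693 and 883 FPKM in CD34-positive replicates 1 to 3, against 1141, 175, 37.8 and 85.2 FPKM in CD34-negative replicates 1 to 4 (log2 difference 3.02, SE 1.09). Lyz2, the lysozyme of phagocytes, had 32.7, 17.1 and 13.9 FPKM against 22.9, 2.41, 0.826 and 2.44 FPKM. In both genes CD34-negative replicate 1 lay among the CD34-positive libraries, as it did for Cebpe. Ctsg, a granule protease, had 216, 652 and 344 FPKM against 157, 112, 197 and 36.4 FPKM, and the repressor Gfi1 had 3.02, 2.50 and 3.09 FPKM against 1.36, 0.392, 0.741 and 0.0541 FPKM, both without overlap. Over all tested genes, 2.67% were higher and 3.01% lower without overlap. Genes named from this list and those that follow were mostly picked for the smallest p in these data, so their separation follows in part from that choice. The receptors Csf3r and Csf1r stayed under 1 FPKM in every library, and Elane, the neutrophil elastase gene, was listed at 0 in 6 of 7 libraries and at 0.2996 FPKM in CD34-negative replicate 1.

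Late granule genes, which C/EBP epsilon activates in maturing neutrophils, were almost absent. All 11 of the 12 that the table lists lay under 1 FPKM in every library, none was tested, and Lcn2, Camp, Fcnb, S100a8 and S100a9 were at 0 in all 7. The 11 summed to 0.206 to 0.302 FPKM in CD34-positive and 0.0876 to 0.274 FPKM in CD34-negative libraries.

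Of 10 inflammatory genes linked to C/EBP beta and delta, 3 were tested, with a median log2 difference of 0.48, and none passed in limma with or without the block (1 higher at an unadjusted p under 0.05 in each fit). Socs3, the feedback inhibitor of cytokine signalling, had 28.7, 5.14 and 30.8 FPKM in CD34-positive replicates 1 to 3, against 18.7, 0.872, 2.62 and 1.28 FPKM in CD34-negative replicates 1 to 4. It was higher in the CD34-positive library of each number (21.4% of all tested genes), with overlap between the groups. Il6, which encodes interleukin 6, had 81.9, 46.9 and 133 FPKM against 69.5, 15.6, 205 and 47.1 FPKM and was mixed in direction, as was Ptgs2, a prostaglandin synthase (2.35, 1.30 and 10.4 against 1.65, 0.260, 21.7 and 2.10 FPKM).

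Among dimer partners and regulators of C/EBP proteins, 18 of 26 listed symbols were tested, 15 with a difference above 0, a median of 0.19 and none past the threshold in limma with or without the block (2 higher at an unadjusted p under 0.05, and 3 with the block). Trib1, a pseudokinase that brings C/EBP alpha to its degradation, had 1.71, 2.27 and 1.36 FPKM in CD34-positive replicates 1 to 3, against 1.50, 0.818, 0.249 and 0.433 FPKM in CD34-negative replicates 1 to 4. Its relative Trib2 was listed at 0 throughout. Ddit3, which encodes CHOP, a C/EBP-related protein that blocks its partners, had 35.9, 17.3 and 43.1 FPKM against 38.3, 33.2, 77.6 and 40.0 FPKM, with overlap. Batf, an AP-1 factor of the leucine zipper class, had 39.3, 49.8 and 27.5 FPKM against 37.1, 26.1, 20.3 and 10.4 FPKM. Cebpz, a CCAAT-binding protein outside the leucine zipper family, did not separate the groups. CD34-positive libraries averaged 22.7 ± 1.51 FPKM (SD, n = 3) and CD34-negative libraries 22.6 ± 4.84 FPKM (SD, n = 4).

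The amino acid genes that ATF4 and C/EBP gamma control together showed no common direction. Of 14 listed, 13 were tested, 8 with a difference above 0 and 5 below, the median was 0.11, and none passed in limma with or without the block (0 at an unadjusted p under 0.05, and 1 higher and 2 lower with the block). Asns, asparagine synthetase, had 105, 293 and 64.0 FPKM in CD34-positive replicates 1 to 3, against 170, 700, 88.6 and 235 FPKM in CD34-negative replicates 1 to 4. It was lower within each number, as were 18.9% of all tested genes. Slc7a5, an amino acid transporter, was also lower within each number, at 134, 238 and 54.9 FPKM against 200, 341, 317 and 74.9 FPKM. Phgdh, the first enzyme of serine synthesis, was higher within each number, as were 21.4% of all tested genes. It had 236, 400 and 11.0 FPKM against 215, 228, 4.32 and 5.76 FPKM, but the libraries numbered 4 lay far below the others in both groups. Mthfd2, a mitochondrial folate enzyme, had 45.5, 80.3 and 29.3 FPKM against 42.2, 75.0, 26.9 and 20.3 FPKM.

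The relatives of Irf8 were expressed more than Irf8 itself, apart from Irf4, which stayed under 1 FPKM in every library. Of 8 listed IRF genes 7 were tested, all with a difference above 0 (median 0.40) and none past the threshold in limma with or without the block (2 higher at an unadjusted p under 0.05, and 3 with the block). Irf1, an activator of interferon target genes, had 13.8, 10.0 and 14.9 FPKM in CD34-positive replicates 1 to 3, against 9.03, 3.30, 4.27 and 3.13 FPKM in CD34-negative replicates 1 to 4 (log2 difference 1.31, SE 0.37; limma adjusted p = 0.647). It was higher without overlap, as were 2.67% of all tested genes. Irf7, which amplifies interferon production, had 5.71, 3.30 and 5.94 FPKM against 5.59, 1.31, 3.25 and 1.53 FPKM, and Irf9, the DNA-binding subunit of a complex that activates interferon target genes, had 17.7, 11.4 and 16.9 FPKM against 18.4, 8.65, 10.0 and 9.69 FPKM. In Irf7 and Irf9 the groups overlapped through CD34-negative replicate 1.

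Monocyte and dendritic cell genes linked to Irf8 were divided. Of 22 listed, 10 were tested, 7 with a difference above 0 and 3 below (median 0.24), and none passed in limma with or without the block (at an unadjusted p under 0.05, 2 higher and 1 lower, and 3 and 1 with the block). Of the 22, 10 lay under 1 FPKM in every library, with Cybb, Batf3 and Siglech at 0 throughout. Cx3cr1 and Ly6c2 reached 1 FPKM but not in enough libraries to be tested, so the counts above leave them out. Cx3cr1 had 0.331, 0.128 and 0.293 FPKM against 0.903, 0.660, 3.68 and 1.61 FPKM, lower without overlap. Ly6c2 was higher in the CD34-positive library of each number, with overlap between the groups. Id2, an inhibitor of E proteins, had 17.0, 32.9 and 30.5 FPKM in CD34-positive replicates 1 to 3, against 45.8, 77.3, 500 and 87.9 FPKM in CD34-negative replicates 1 to 4, lower without overlap (3.01% of all tested genes). Cd74, the class II invariant chain, had 4.22, 9.79 and 5.61 FPKM against 4.14, 3.09, 2.39 and 0.812 FPKM. Ncf1, a subunit of the phagocyte oxidase, had 1.91, 4.30 and 2.46 FPKM against 1.56, 1.31, 1.49 and 0.671 FPKM, higher without overlap (2.67% of all tested genes). Cst3, cystatin C, had 153, 173 and 74.4 FPKM against 142, 133, 46.5 and 41.6 FPKM.

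**Figure D4:**
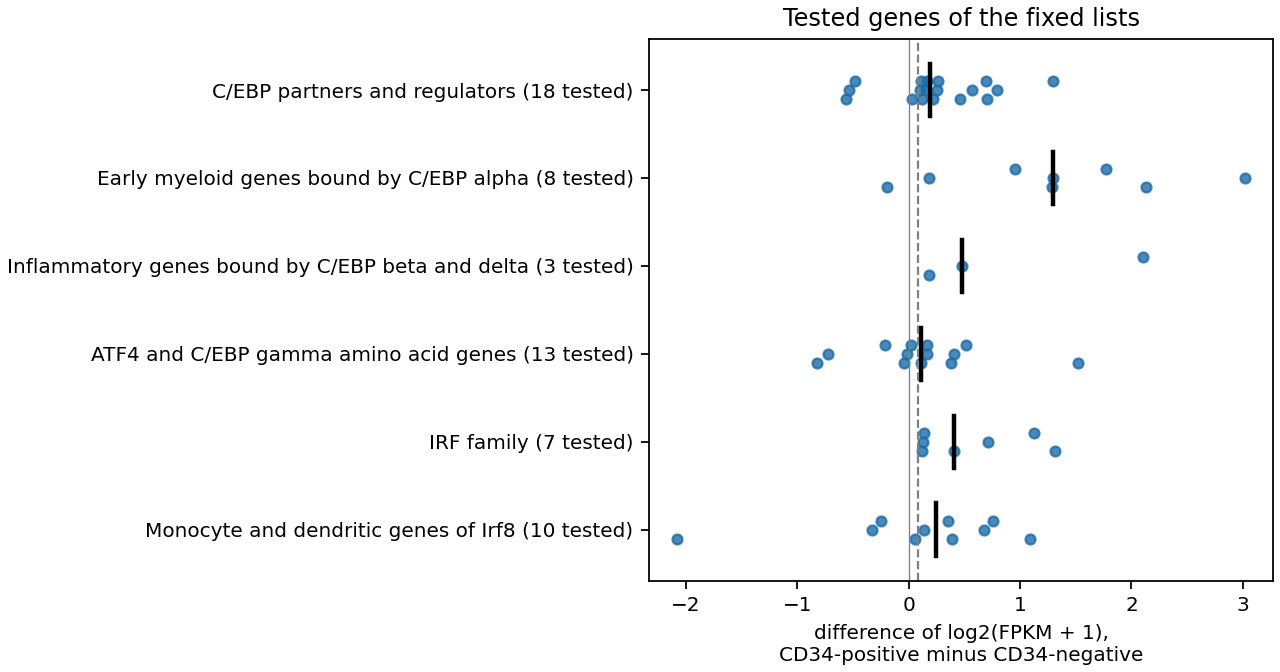
Difference of log2(FPKM + 1), CD34-positive minus CD34-negative (horizontal axis), of the tested genes of 6 lists, 1 point a gene. Black bars are list medians and the dashed line is the median of all 9259 tested genes (0.09). The early myeloid list has the highest median (1.29) and the amino acid list the lowest (0.11).

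The genes whose log2 values followed each tested member most closely over the 7 libraries, among tested genes averaging at least 5 FPKM, were listed by Pearson's r as a description. All 7 points share the library kinds and depths described above. For Cebpe they were Csad, an enzyme of taurine synthesis (r = 0.998), Rltpr (r = 0.997) and Snx2, a sorting nexin (r = 0.994), of 7248 genes ranked. Csad had 26.4, 18.3 and 12.1 FPKM in CD34-positive replicates 1 to 3, against 16.5, 3.03, 2.81 and 2.74 FPKM in CD34-negative replicates 1 to 4, so it too was high in CD34-negative replicate 1. For Cebpa they included Clec4d, a C-type lectin of myeloid cells (r = 0.982) and Cript (r = 0.978). Clec4d had 16.4, 29.9 and 11.8 FPKM against 11.0, 10.1, 4.80 and 5.27 FPKM, with CD34-positive replicate 2 the highest as for Cebpa. For Cebpd they were Zbed3 (r = 0.977), Zdhhc9 (r = 0.976) and Flt1, a receptor of VEGF (r = 0.966, at 10.4, 9.27 and 14.9 FPKM against 6.62, 1.98, 2.11 and 2.07 FPKM). For Cebpg they were Irgm1, an interferon-induced GTPase (r = 0.996), Ssr1 (r = 0.995) and Bcor, a corepressor (r = 0.994). Irgm1 had 23.4, 10.5 and 19.2 FPKM against 22.0, 3.52, 11.3 and 14.0 FPKM, low in both replicate 2 libraries like Cebpg.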

How the data were processed

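The deposited table gives FPKM values, 1 column per library, calculated by the authors. The submitters' processing notes name Cuffdiff, TopHat and TopHat2 and the builds mm9 and mm10, without versions or roles. The annotation is not given in the sources used here and the sequencing depth is unknown. Columns were matched to libraries by description and title.

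The 322 rows of 105 symbols listed more than once were left out, none of them a member. Values were transformed as log2(FPKM + 1) and fitted over 9259 genes (at least 1 FPKM in at least 3 libraries) with limma 3.58.1 (R 4.3.3, mean-variance trend fitted, two-sided tests) and Benjamini-Hochberg adjustment and a threshold of 0.05. The script was tested on simulated data. Correlations of deviations from the group means were 0.703 to 0.915 between libraries of equal description number and at most 0.372 between others, so these numbers were taken to pair the libraries. This may also reflect the kind of library.

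Members and lists were chosen with earlier results of these data known. Named genes are the members, Cd34, up to 4 genes of each list with the smallest p, and the 3 genes most like each tested member, of which some are not reported here. Tmem189, Cebpz and other list genes named for low values were chosen after their values were seen. List symbols absent from the table used here (Cop1, Spi1, Sfpi1 and Chi3l3) have no value.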

Additional observations from a re-analysis of the deposited data

Results flagged for a closer look

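CD34-negative replicate 1 stood high above the other 3 libraries of its group in 6 of 39 named genes, on the log2(FPKM + 1) scale. Over all tested genes the same library stood high in this way in 96 of 9259 (1.04%). Any CD34-negative library, in either direction, stood apart in 551 of 9259 (5.95%), and about 1 in 20 would by chance. The distance of CD34-negative replicate 1 to the next library, as a fraction of the group's range, was 0.937 for Cebpe and 0.897 for Irf8. It was 0.951 for Csad, 0.859 for Rltpr and 0.915 for Snx2, which were named for their likeness to Cebpe and so are not independent of it, and 0.956 for Flt1, named for its likeness to Cebpd. CD34-negative replicate 1 held the most Cd34 of its group (91.8 FPKM, against 2.67 to 19.3 FPKM in the other 3). On the log2 scale the fraction for Cd34 was 0.471, and Cd34 was not among the 6 genes. Whether CD34-negative replicate 1 held CD34-positive cells was not tested.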

How the results depend on the processing

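None of the 23 alternative fits reversed the direction of a member. Cebpa and Cebpe drop out with a filter of 5 FPKM, and Cebpb and Irf8 enter only without a filter. With the replicate block the calls of the 4 tested members did not change (adjusted p 0.0931 to 0.134), but Cebpe passed in limma when either replicate 1 library was also left out. Those are in effect the same fit, since a library left alone in its block adds nothing to the difference. The gene counts given below for them nearly repeat for the same reason. Over all single libraries left out, with and without the block, the log2 difference of Cebpe lay between 1.05 and 1.79 (1.555 where it passed). The count of genes past the threshold, 0 in each direction in the reported fit, was 2 higher without a filter on low values. Without CD34-negative replicate 1 it was 7 higher and 3 lower, and 0 without any other single library. With the block it was 231 higher and 81 lower without CD34-negative replicate 1, 230 and 81 without the CD34-positive library of that number, 32 and 125 without CD34-negative replicate 3, 1 and 0 without CD34-positive replicate 3, and 0 for the other 3 libraries. No list gained a member past the threshold with the block.

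With the pseudocount 0.1, which weighs low values more, differences within equal numbers moved by more than the spread between replicates for the low genes. In number 2 they were 3.57 for Cebpe and 1.04 for Irf8. In number 4 against CD34-negative replicate 3 they were 2.57 for Cebpa, -1.67 for Cebpb, 3.26 for Cebpe and 1.25 for Irf8. Against CD34-negative replicate 4 they were 1.79 for Cebpa, 2.80 for Cebpe and 0.75 for Irf8. Depth is unknown, so values near 0 carry no counting interval.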
